A study of Mus musculus with 6 samples.

Results

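The red cell membrane and late erythroid genes described here are Slc4a1, Sptb, Ank1, Car1, Car2, Ermap, Rhd and Tmem56 (Tlcd4 in later annotation). They were chosen by symbol, and all 8 were found among the 24062 genes of the count table and passed the filter on low counts, with 15742 genes tested. The libraries are messenger RNA of Kit-positive mouse bone marrow cells, a progenitor-rich sort, lineage-negative by the series description. There were 3 libraries from Ints11 KO mice (KO_339, KO_340, KO_345), in which Mx1-Cre deletes floxed Ints11 alleles, and 3 from WT littermates (WT_341, WT_343, WT_344), all on the C57BL/6 strain with 1 mouse per library. Cells of both genotypes are described as sorted 4 days after poly(I:C), the interferon-inducing RNA mimic that switches on Mx1-Cre. Mx1-Cre acts in interferon-responsive cells of many kinds and is not specific to erythroid cells. The labels state neither the age of the mice nor the Cre status of the WT littermates.

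Red cells carry a dense membrane skeleton of spectrin, which ankyrin ties to the anion exchanger band 3, and this linkage gives the cell its shape and resilience. The proteins are built up as erythroblasts mature. Maturing erythroblasts lose the Kit receptor, so a Kit-positive sort is rich in early erythroid progenitors and poor in late ones. The carbonic anhydrases convert carbon dioxide to bicarbonate, which band 3 then exchanges for chloride.

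Total counts were between 127011537 and 142983542 in KO libraries and between 124074531 and 166860739 in WT libraries. Ints11, listed as Cpsf3l, stood at 64.3, 58.3 and 60.2 CPM (reads relative to the TMM-scaled library total) in KO libraries, against 73.8, 92.3 and 78.9 CPM in WT libraries. It fell by 0.42 ± 0.10 (SE) on the log2 scale (edgeR's quasi-likelihood test, adjusted by Benjamini-Hochberg, adjusted p = 0.0174), and that call was lost without KO_340 (adjusted p = 0.0557) or KO_345 (0.0541). Kit itself lay between 220.3 and 238 CPM in KO libraries and between 199 and 221 CPM in WT libraries. Mature neutrophil genes, which a lineage-negative sort should lack, summed to between 47123 and 61682 CPM in KO libraries and between 12778 and 39429 CPM in WT libraries. Xist and Y-linked counts placed KO_339, KO_340 and WT_341 as males and KO_345, WT_343 and WT_344 as females. All 6 adult globin genes have 0 reads in every library and are left out. These zeros are not read as a lack of globin RNA in the cells, and their cause was not tested.

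WT_341 stood apart from the other 5 libraries in these genes. All 8 genes were highest in WT_341, which was the highest library for 13.9% of all genes tested. All 8 were also at least 2-fold higher in WT_341 than in both WT_343 and WT_344, a difference seen for 3.91% of genes tested. For 6 of the 8 (all but Car1 and Car2) WT_341 was at least 2-fold above each of the other 5 libraries, against 0.451% of genes tested. The 8 genes were chosen with earlier results of these data known, so these shares describe them and are no independent test. The ratio of WT_341 to the mean of WT_343 and WT_344 ran between 2.82-fold for Car2 and 52.7-fold for Slc4a1. WT_341 was also the only WT male and KO_345 the only KO female, so sex and library cannot be told apart. A genotype by sex interaction passed for 6 of the 8 genes (0.502% of genes tested), but with 1 library in each of those arms it rests on the same high WT_341 and is no test of sex. The tests of the 8 genes below are therefore given with and without WT_341. Leaving it out sets WT_343 and WT_344, both female, against KO libraries of which KO_339 and KO_340 are male. Genotype and sex are thus partly confounded in every fit without WT_341. In bulk libraries such as these, more erythroid cells and more RNA per erythroid cell cannot be told apart.

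**Figure D1:**
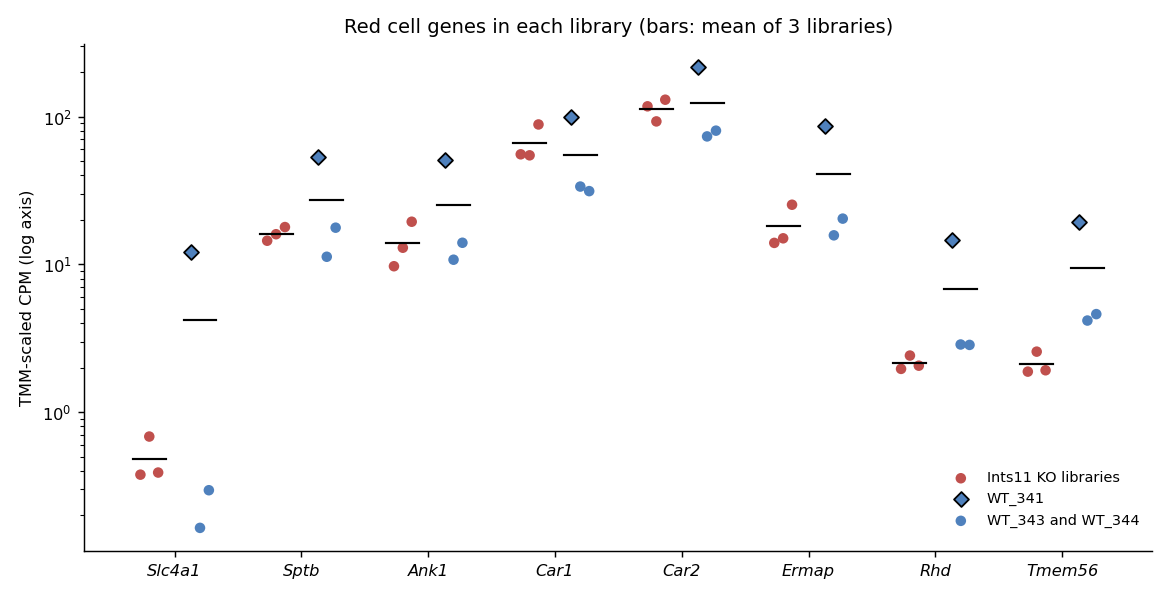
TMM-scaled CPM (log axis) of the 8 red cell genes in each library, with KO libraries in red to the left of WT libraries in blue and a bar at each mean of 3 libraries. WT_341 (diamond) was the highest library for all 8 genes, and it lifts the WT mean well above WT_343 and WT_344.

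Of the 8 genes, 1 was called lower in KO libraries and 0 higher when all 6 libraries were used (edgeR's quasi-likelihood test, Benjamini-Hochberg adjustment over all genes tested, threshold 0.05). The background shares were 19.9% of genes called lower and 16.0% called higher. At an unadjusted p under 0.05 Rhd and Tmem56 were lower and no gene was higher, but the share over all genes at that threshold was not worked out. DESeq2 likewise called Tmem56 lower and 0 of the 8 genes higher. It called 6615 of the 15742 genes fitted, in either direction. Without WT_341, 1 gene was lower (Tmem56) and 2 were higher (Car1 and Car2), against 26.6% and 22.1% of 16185 genes tested. The median log2 change of the 8 genes was -1.01 with all libraries and 0.16 without WT_341, while the median over all genes tested was 0.01 and 0.02. The sign of that median therefore rested on WT_341, and the shares of the 8 genes called were near or below the background.

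**Figure D2:**
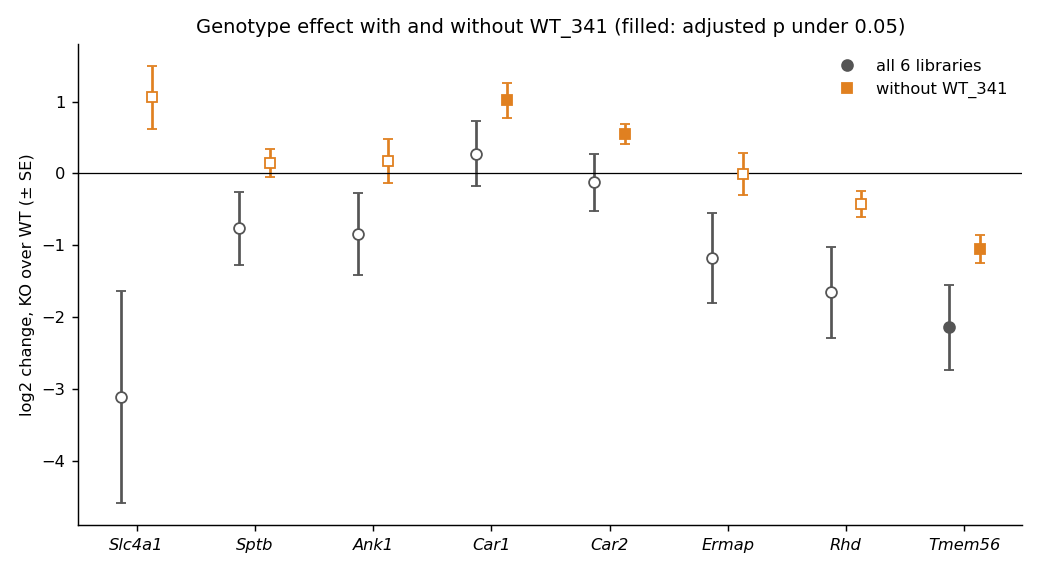
Log2 change of KO over WT with its standard error for each gene, from all 6 libraries (grey circles) and without WT_341 (orange squares), with filled symbols for an adjusted p under 0.05. Tmem56 lies below 0 in both fits, while Slc4a1, Sptb, Ank1 and Car2 change sign and Car1 and Car2 pass the threshold only without WT_341.

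RefSeq promoter windows on GRCm38.p6 were available here for 4 of the 8 genes, and the 250 bases before a start of each are shown because these genes share the high WT_341. The GATA motif of the erythroid factor GATA1 was searched as AGATAA, with the variants that end in G (as in AGATAG) or open with T (as in TGATAA and, with both changes, in TGATAG). The motif of KLF1 and related factors was searched as CCNCNCCC, both on either strand, and matches are in capitals. The Rhd window is chr4:134864286-134864535 (forward strand), the Ermap window chr4:119189996-119190245, the Tmem56 window chr3:121263341-121263590 and the Sptb window chr12:76710548-76710797 (all reverse strand, written 5′ to 3′ on the strand of the gene). The Tmem56 window precedes a RefSeq start that lies inside an intron of the gene in GENCODE, and the Ermap window reaches slightly into the first exon there.
Rhd: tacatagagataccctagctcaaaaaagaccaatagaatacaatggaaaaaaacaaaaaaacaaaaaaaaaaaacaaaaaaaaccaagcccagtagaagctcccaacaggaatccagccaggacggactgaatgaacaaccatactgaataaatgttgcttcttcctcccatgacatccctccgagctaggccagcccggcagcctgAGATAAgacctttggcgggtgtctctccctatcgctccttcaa
Ermap: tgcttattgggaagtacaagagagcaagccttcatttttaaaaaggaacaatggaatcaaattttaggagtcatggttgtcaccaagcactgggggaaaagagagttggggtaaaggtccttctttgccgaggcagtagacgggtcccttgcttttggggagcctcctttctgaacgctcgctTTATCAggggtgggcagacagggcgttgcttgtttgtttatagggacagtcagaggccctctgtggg
Tmem56: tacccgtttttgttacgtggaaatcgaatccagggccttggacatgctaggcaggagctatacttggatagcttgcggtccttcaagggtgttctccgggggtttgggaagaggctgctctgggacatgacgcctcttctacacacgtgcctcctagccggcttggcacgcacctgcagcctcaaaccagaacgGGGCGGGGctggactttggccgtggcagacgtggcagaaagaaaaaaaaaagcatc
Sptb: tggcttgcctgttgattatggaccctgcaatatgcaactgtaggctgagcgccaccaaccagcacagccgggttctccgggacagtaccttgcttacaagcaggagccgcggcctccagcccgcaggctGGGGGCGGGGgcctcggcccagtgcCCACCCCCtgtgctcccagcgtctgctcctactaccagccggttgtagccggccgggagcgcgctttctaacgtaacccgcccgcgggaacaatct
Rhd held 1 GATA match, 43 to 38 bases before the start, and Ermap 1 on the opposite strand, 67 to 62 bases before it. The Tmem56 window shown held 1 match to CCNCNCCC, and Sptb held 3, of which 2 overlap each other. A second RefSeq window of Tmem56, chr3:121263168-121263417, overlaps the one shown and held 2 matches to CCNCNCCC and 0 GATA matches. Of 32851 windows of this length, 26.5% held a GATA match and 45.9% a match to CCNCNCCC, so such matches are common, and they are a description of the letters only.

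Slc4a1 encodes band 3, the chloride and bicarbonate exchanger of the red cell, and lies on chromosome 11 (102348824 to 102366203, reverse strand, GRCm38). It stood at 0.377, 0.683 and 0.39 CPM in KO libraries, against 12.1, 0.165 and 0.296 CPM in WT_341, WT_343 and WT_344. WT_341 alone held 1495 reads of this gene, whereas the other 5 libraries held between 26 and 90. The log2 change was -3.11 ± 1.48 (SE) with all libraries (edgeR's quasi-likelihood test, adjusted p = 0.133) and 1.06 ± 0.44 without WT_341 (adjusted p = 0.0785), so neither fit passed and the sign turned. Each of the 3 KO libraries lay above both WT_343 and WT_344.

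Sptb encodes the beta chain of erythroid spectrin (chromosome 12, 76580488 to 76710547, reverse strand). Its levels were 14.4, 15.98 and 17.9 CPM in KO libraries, against 53.3, 11.3 and 17.7 CPM in WT_341, WT_343 and WT_344. The KO libraries lay close together and within the range of the WT libraries. The log2 change was -0.77 ± 0.51 (adjusted p = 0.265, edgeR's quasi-likelihood test) and 0.14 ± 0.20 without WT_341 (adjusted p = 0.571). With WT_344 also left out it was 0.49, and with WT_343 left out in its place it was -0.13. These fits leave only WT_343 or only WT_344 as the WT group. The spread between WT mice was therefore not measured in them, and no call is drawn from them.

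Ank1 encodes the ankyrin that joins spectrin to band 3 (chromosome 8, 22974844 to 23150497, forward strand). It stood at 9.71, 12.95 and 19.4 CPM in KO libraries, against 50.7, 10.7 and 13.99 CPM in WT libraries in the same order. KO_345 held the most of the KO libraries, but the genotypes overlapped. The log2 change was -0.84 ± 0.57 (adjusted p = 0.277, edgeR's quasi-likelihood test) and 0.17 ± 0.31 without WT_341 (adjusted p = 0.670). The antisense gene Gm15816 shares 862 bp of exon with Ank1. The libraries are strand-specific, but no source states whether counting used strand, so whether reads of the pair were kept apart there is not known.

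The cytosolic carbonic anhydrase genes lie near each other on chromosome 3, Car1 at 14766216 to 14808368 on the reverse strand and Car2 at 14886273 to 14900770 on the forward strand. Car1 stood at 55.5, 54.7 and 88.4 CPM in KO libraries, against 99.5, 33.6 and 31.3 CPM in WT_341, WT_343 and WT_344. Car2, which is also used by osteoclasts and other cells, stood at 117, 92.7 and 130.1 CPM in KO libraries, against 216 CPM in WT_341, 73.4 CPM in WT_343 and 80.3 CPM in WT_344. For both genes the 3 KO libraries lay between WT_341 and the other WT libraries. With all libraries Car1 (log2 change 0.27 ± 0.45, adjusted p = 0.653) and Car2 (-0.12 ± 0.40, adjusted p = 0.829) did not pass edgeR's quasi-likelihood test. Without WT_341 Car1 rose by 1.02 ± 0.24 (adjusted p = 0.0194) and Car2 by 0.55 ± 0.14 (adjusted p = 0.0174) on the log2 scale, about 2.04-fold and 1.48-fold by group means. In that fit the WT libraries are all female, whereas KO_339 and KO_340 are male, so sex is not separated from genotype in these calls. Those calls then rested on WT_343 and WT_344. Whether they hold without either of these could not be tested, because the WT group would then have no measured spread between mice. The call of Car2 was lost when KO_339 was also left out (adjusted p = 0.0548). The summed osteoclast markers were between 22.5 and 36.9 CPM in KO libraries and between 17.3 and 32.6 CPM in WT libraries. Of 7 tested, 0 were called in either direction, against 16.0% of all genes tested called higher and 19.9% called lower. So few markers cannot show that osteoclast content was alike, and the part of osteoclasts in the level of Car2 was not tested.

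Ermap encodes an erythroblast membrane protein of the butyrophilin family, which carries the Scianna blood group in humans (chromosome 4, 119175457 to 119190011, reverse strand). It stood at 13.96, 14.999 and 25.3 CPM in KO libraries, against 86.6, 15.7 and 20.4 CPM in WT_341, WT_343 and WT_344. WT_343 and WT_344 lay inside the range of the KO libraries, in which KO_345 was the highest. The log2 change was -1.18 ± 0.63 with all libraries (adjusted p = 0.174, edgeR's quasi-likelihood test) and -0.01 ± 0.30 without WT_341 (adjusted p = 0.986).

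Rhd encodes the mouse Rh polypeptide, the partner of the Rh-associated glycoprotein in the membrane (chromosome 4, 134864536 to 134896172, forward strand). It stood at 1.96, 2.41 and 2.06 CPM in KO libraries, against 14.6, 2.87 and 2.85 CPM in WT_341, WT_343 and WT_344. Every KO library lay below every WT library, with or without WT_341. This separation was seen for 2 of the 8 genes, and for 28.4% of all genes tested (36.3% without WT_341). The log2 change was -1.66 ± 0.63 (edgeR's quasi-likelihood test, adjusted p = 0.0760) and -0.43 ± 0.18 without WT_341 (adjusted p = 0.0843), and neither passed. With sex as a covariate the change was -1.63 and passed (adjusted p = 0.0484, in a range from 0.0484 to 0.207 over 14 alternatives).

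Tmem56 encodes a transmembrane protein with a TLC domain (chromosome 3, 121201761 to 121283098, reverse strand). It stood at 1.88, 2.56 and 1.92 CPM in KO libraries, against 19.4, 4.16 and 4.602 CPM in WT_341, WT_343 and WT_344. As for Rhd, every KO library lay below every WT library, a separation in this direction that 28.4% of all genes tested show (36.3% without WT_341). Tmem56 fell by 2.14 ± 0.60 on the log2 scale with all libraries (adjusted p = 0.0291) and by 1.06 ± 0.20 without WT_341 (adjusted p = 0.00386), both by edgeR's quasi-likelihood test. With all 6 libraries the call was lost when any KO library was left out (adjusted p between 0.0714 and 0.109), with limma-voom (0.0764) and with no low-count filter (0.0734). Without KO_339, KO_340 or KO_345 the log2 change was -2.05, -2.30 and -2.07. Those fits also called fewer genes over the whole table (2302, 3316 and 2966, against 5659). Without WT_341 the log2 change ran from -1.21 to -0.89 over 12 further alternatives. The call held in each of these that kept both WT_343 and WT_344. The alternatives that also leave out WT_343 or WT_344 measure no spread between WT mice, so only their log2 change is read. So the drop is smaller without WT_341, and its error is smaller as well.

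Opposite separations were also seen. With all libraries 0 of the 8 genes had every KO library above every WT library, against 25.6% of genes tested. Without WT_341 this held for Slc4a1, Car1 and Car2, against 34.7% of genes tested. Among the KO libraries, KO_345 was the highest for 5 of the 8 genes (37.8% of genes tested), by 1.75-fold over the mean of KO_339 and KO_340 for Ermap and 1.71-fold for Ank1, but not for Slc4a1, Rhd or Tmem56.

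Levels of different genes were set side by side as CPM per kb of annotated exon. In KO libraries Car1 (53.1 ± 15.4 CPM per kb, SD, n = 3) and Car2 (46.8 ± 7.83) were the most abundant and overlapped within their spread. Ermap followed at 3.42 ± 1.18 CPM per kb, then Rhd (1.35 ± 0.149), Sptb (1.33 ± 0.141) and Ank1 (1.04 ± 0.366), which overlapped each other, then Tmem56 (0.269 ± 0.0489) and Slc4a1 (0.0988 ± 0.0354). In WT libraries the order was Car2 (50.9 ± 33.3 CPM per kb), Car1 (43.9 ± 31.02), Ermap (7.72 ± 7.48), Rhd (4.25 ± 4.25), Sptb (2.26 ± 1.86), Ank1 (1.86 ± 1.64), Tmem56 (1.19 ± 1.1) and Slc4a1 (0.858 ± 1.404). The SD ranges of neighbouring WT means overlap because WT_341 raised all 8 genes, but within each WT library Car1 stood above Ermap, at 79.7 against 16.3 CPM per kb in WT_341, 26.9 against 2.97 in WT_343 and 25.1 against 3.85 in WT_344. In WT_341 itself Slc4a1 reached 2.48 CPM per kb, level with Tmem56 at 2.46 CPM per kb, whereas in WT_343 and WT_344 it was the lowest of the 8 at 0.0336 and 0.0605 CPM per kb.

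Ratios of genes within a library do not depend on scaling between libraries. Car1 reads were 0.473, 0.589 and 0.68 of the Car2 reads in KO libraries, against 0.46, 0.458 and 0.39 in WT_341, WT_343 and WT_344. Every KO library lay above every WT library, WT_341 included, with a mean log2 difference of 0.40 (n = 3 each, two-sided exact permutation test over 20 assignments, p = 0.10, the smallest possible, and 0.30 adjusted over 3 ratios). Without WT_341 the difference was 0.44 (exact p = 0.20). Slc4a1 reads per Ank1 read were 0.0388, 0.0527 and 0.0201 in KO libraries, against 0.239 in WT_341 and 0.0153 and 0.0211 in WT_343 and WT_344 (log2 difference -0.30, exact p = 0.90, adjusted 0.90). Without WT_341 that difference turned to 0.94 (exact p = 0.30). WT_341 thus had a higher share of Slc4a1 relative to Ank1 than any other library, while its ratio of Car1 to Car2 was like that of WT_343.

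**Figure D3:**
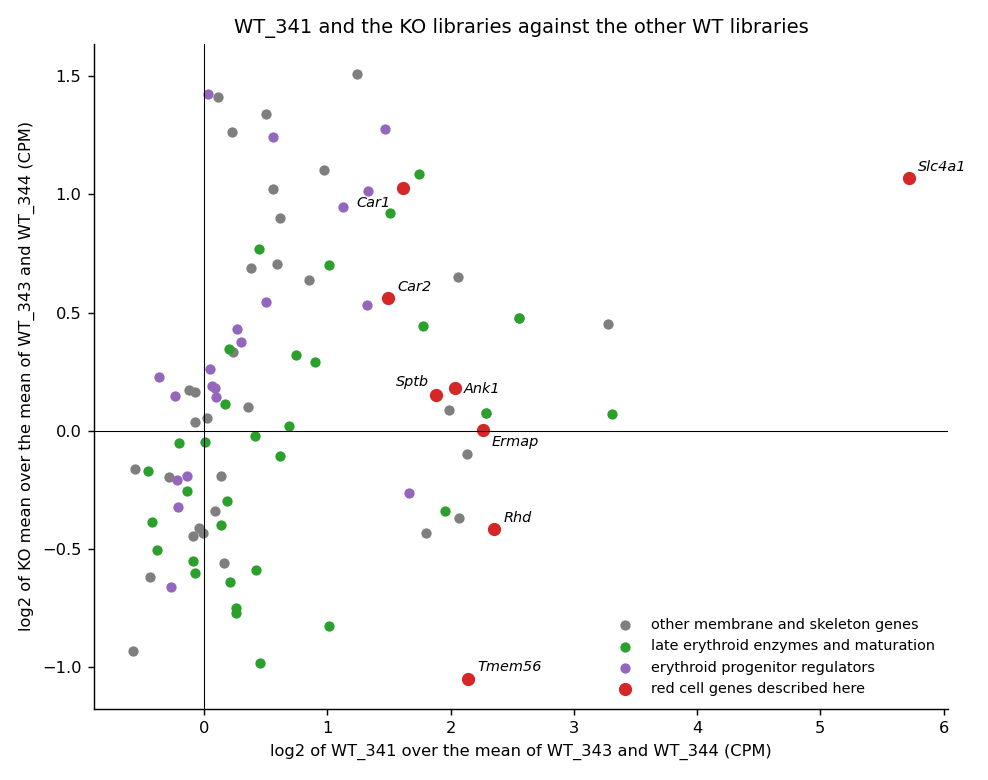
Each point is a gene, with the log2 ratio of WT_341 to the mean of WT_343 and WT_344 on the x axis and the log2 ratio of the KO mean to the same mean on the y axis, both from CPM. The 8 red cell genes (red) all lie to the right of 1 on the x axis, with Slc4a1 farthest out, and they spread from above 1 (Slc4a1, Car1) to below -1 (Tmem56) on the y axis.

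Other genes of the red cell membrane and its skeleton were read from a list of 35, of which 34 were tested. Of these 5 were higher and 8 lower in KO libraries (9 and 8 without WT_341), with a median log2 change of -0.07 (0.08 without WT_341). Over all genes tested 16.0% were higher and 19.9% lower (22.1% and 26.6% without WT_341). The named genes were Cd55, a complement regulator, at 25.6 ± 6.06 CPM in KO and 11.5 ± 2.68 CPM in WT libraries (log2 change 1.15, adjusted p = 0.00965), and Sema7a, a semaphorin (1.19, 0.0114). The nucleoside transporter gene Slc29a1 (-0.41, 0.00932) and the porphyrin transporter gene Abcb6 (-0.61, 0.00925) were lower, all by edgeR's quasi-likelihood test. The call of Abcb6 was lost without KO_339 (adjusted p = 0.0541). None of these 4 was 2-fold above both other WT libraries in WT_341. The 8 list members that were included Epb4.2, Dmtn, Add2, Rhag, Kel and Aqp1, chosen for naming after their values were seen. Rhag, the Rh-associated glycoprotein gene, stood at 3.92, 4.499 and 6.10 CPM in KO libraries, against 22.4, 3.95 and 5.23 CPM in WT_341, WT_343 and WT_344. Epb4.2, the gene of protein 4.2, which binds band 3, stood at 1.254, 1.07 and 1.36 CPM in KO libraries, against 4.59, 1.196 and 1.11 CPM in WT libraries in the same order. WT_341 was 4.88-fold above the mean of WT_343 and WT_344 for Rhag and 3.97-fold for Epb4.2, against 52.7-fold for Slc4a1. Without WT_341 Cd55 (log2 change 1.33), Sema7a (1.255), Slc29a1 (-0.46) and Abcb6 (-0.57) still passed.

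Among 32 tested late erythroid enzyme and maturation genes, 1 was higher and 10 were lower in KO libraries (5 and 12 without WT_341), with a median log2 change of -0.35 (-0.09 without WT_341). The shares over all genes tested were 16.0% higher and 19.9% lower (22.1% and 26.6% without WT_341). Rhag is on this list as well. Fech, whose enzyme inserts iron into haem, stood at 25.9 ± 1.77 CPM in KO and 47.2 ± 5.05 CPM in WT libraries (SD, n = 3 each, log2 change -0.86, edgeR's quasi-likelihood test, adjusted p = 0.00329). Urod, another gene of haem synthesis (-0.71, 0.00378), and the peroxiredoxin gene Prdx2 (-0.58, 0.00344) were lower too. Without WT_341 their log2 changes were -0.78, -0.65 and -0.61, so these 3 genes, unlike most of the 8 red cell genes, changed little when that library was set aside. WT_341 was the highest library for 22 of the 32, against 13.9% of all genes tested.

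Of 20 tested erythroid progenitor regulators, 3 were higher and 1 lower (9 and 3 without WT_341), with a median log2 change of 0.23 in both fits. Among all genes tested 16.0% were higher and 19.9% lower (22.1% and 26.6% without WT_341). Gata2, a transcription factor of early progenitors, stood at 60.4 ± 12.99 CPM in KO and 22.7 ± 2.38 CPM in WT libraries (log2 change 1.41, adjusted p = 0.00306). The GATA1 cofactor gene Zfpm1 (1.03, 0.0249) and Stat5b (0.25, 0.0262) were also higher, and the transferrin receptor gene Tfrc (-0.58, 0.0131) was lower, all by edgeR's quasi-likelihood test. Leaving out single libraries ended the calls of Tfrc (without KO_339, adjusted p = 0.0511), Stat5b (any KO library or WT_344, 0.0649 to 0.0875) and Zfpm1 (KO_339, KO_345, WT_343 or WT_344, 0.0508 to 0.0760). Without WT_341 Gata2 (1.41), Zfpm1 (1.23), Stat5b (0.25) and Tfrc (-0.67) still passed. Gata1, Klf1 and Gfi1b, picked for naming after their values were seen, did not pass edgeR's test with all libraries and passed it without WT_341, as Car1 did. All 4 also passed with all libraries under limma-voom with sample quality weights (adjusted p between 0.0115 and 0.0348). Such weights can count a deviating library less, so that fit is no separate support for the one without WT_341. Car1 did not pass limma-voom without those weights (adjusted p = 0.403). Gata1 stood at 16.9, 13.6 and 22.5 CPM in KO libraries, against 20.04, 8.75 and 9.59 CPM in WT_341, WT_343 and WT_344. With all libraries Gata1 (log2 change 0.47, adjusted p = 0.298), Klf1 (0.42, 0.394) and Gfi1b (0.61, 0.283) did not pass, whereas without WT_341 they rose by 0.94, 1.004 and 1.27 on the log2 scale (adjusted p = 0.00999, 0.00376 and 0.00477, edgeR's quasi-likelihood test).

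Paralogs of the 8 genes did not share the WT_341 pattern as a group. Of the other carbonic anhydrase genes, 0 of 10 tested, and of the spectrin, ankyrin, anion exchanger and Rh paralogs 1 of 15 (Slc4a10, at most 0.217 CPM) were 2-fold above both other WT libraries in WT_341. In KO libraries 3 and 3 were higher and 1 and 1 lower (4 and 3 higher and 1 and 1 lower without WT_341). Beside these, 16.0% of all genes tested were higher and 19.9% lower (22.1% and 26.6% without WT_341). Car3 (log2 change 0.99), Car5b (1.61) and Car8 (2.43) were higher and Car9 (-0.54) was lower, all at 4.57 CPM or less on average in KO libraries. Car8 was near the floor, at 0.130 CPM in KO and 0.0234 CPM in WT libraries, and Car5b was low at 0.567 and 0.186 CPM. The broadly expressed exchanger gene Slc4a2 was higher (0.38) and the bicarbonate cotransporter gene Slc4a7 lower (-0.55), with adjusted p between 0.00454 and 0.0380 for these 6 genes in edgeR's quasi-likelihood test. Slc4a11 (1.03) and Rhcg (0.83) were higher as well (adjusted p = 0.0244 and 0.0169). All 8 of these genes passed in the same direction without WT_341, with adjusted p between 0.000746 and 0.0299. Without KO_339 the calls of Car3, Car5b, Car9, Slc4a2, Slc4a11 and Rhcg were lost (adjusted p between 0.0509 and 0.0764). Of these, Car9, Slc4a11 and Rhcg were also lost without either other KO library and without WT_344, Car3 without WT_344, Slc4a2 without KO_340, and Car9 further without WT_343, with upper-quartile factors (0.0874), with library totals only (0.0670) and with the filter of 1 CPM in 3 libraries (0.0598).

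Among the WT libraries the lymphoid and neutrophil sums were also highest in WT_341, whereas the megakaryocyte and macrophage sums were lowest there. What part these cell types have in the result was not tested. The 12 lymphoid and B cell genes summed to between 126 and 150.2 CPM in KO libraries, against 205 CPM in WT_341, 36.5 CPM in WT_343 and 73.5 CPM in WT_344, and 10 of the 12 were at least 2-fold above both other WT libraries in WT_341. The 15 mature neutrophil genes found summed to 39429 CPM in WT_341, 12778 CPM in WT_343 and 23194 CPM in WT_344. Of these 15, 2 (13.3%) were at least 2-fold above both other WT libraries in WT_341, and the share over all genes tested was 3.91%. Megakaryocyte genes summed to between 189 and 261 CPM in KO libraries and between 93.2 and 103 CPM in WT libraries. Of 14 tested, 10 were called higher in KO libraries with and without WT_341, against 16.0% and 22.1% of all genes tested. In WT_341, 0 of them were at least 2-fold above both other WT libraries. Macrophage genes, which mark the cells that nurse erythroblasts, were lowest in WT_341 (546 CPM) and lay between 675 and 965 CPM in KO libraries and between 787 and 862 CPM in WT_343 and WT_344. Vcam1 and Slc40a1 made up most of that sum and were near the other WT libraries in WT_341 (1.05-fold and 0.933-fold their mean). C1qa, C1qb, C1qc, Mertk, Cd5l and Spic, named after their values were seen, were at 0.0686-fold to 0.142-fold. C1qa stood at 44.8, 11.3 and 62.8 CPM in KO libraries, against 4.49, 56.4 and 53.5 CPM in WT_341, WT_343 and WT_344. No marker of these 4 lists was at 0 in all libraries. The 8 red cell genes together summed to 215, 197 and 285 CPM in KO libraries, against 553, 152 and 171 CPM in WT_341, WT_343 and WT_344. Eosinophil genes summed to 1875, 1351 and 1546 CPM in these WT libraries, in the same order. In the red cell, lymphoid, neutrophil and eosinophil sums alike WT_341 was the highest and WT_343 the lowest of the WT libraries. The mast cell and basophil sum was also highest in WT_341 (215 CPM, against 204 and 173 CPM). The sums of the T and NK cell, stem cell, stroma and endothelium, and osteoclast lists were lowest in WT_341.

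**Figure D4:**
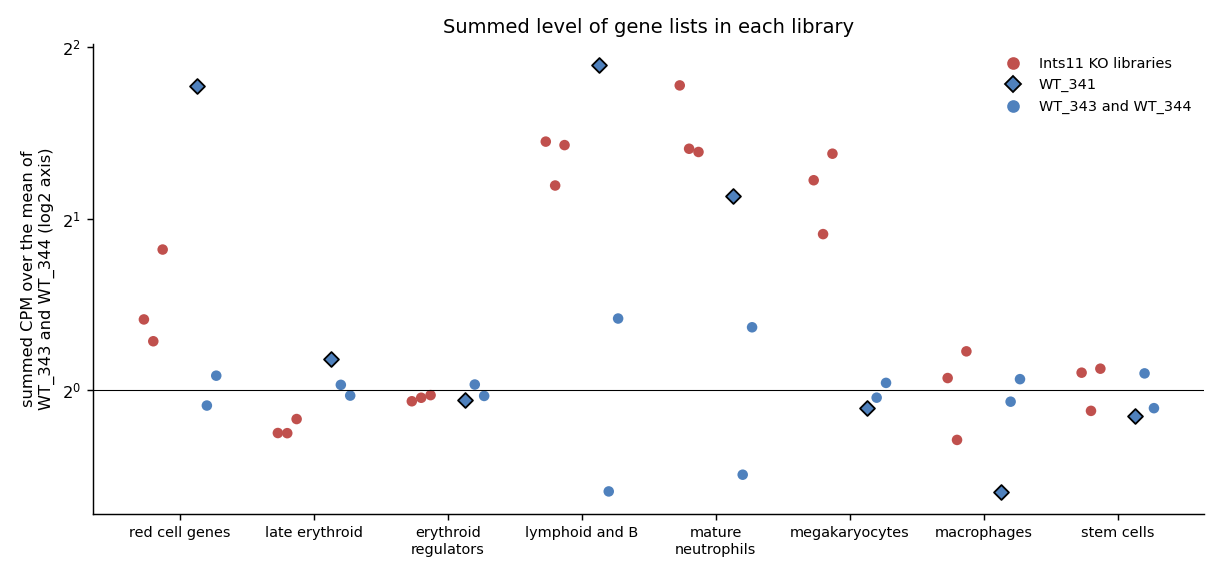
Summed CPM of 8 gene lists in each library, divided by the mean of WT_343 and WT_344 (log2 axis), with KO libraries in red to the left of WT libraries in blue. WT_341 (diamond) is high for the red cell, lymphoid and neutrophil lists and low for the macrophage list, while all KO libraries are high for the megakaryocyte and neutrophil lists.

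The nearest genes in pattern were found by the root mean square difference of centred log2 CPM over the 6 libraries, among 11737 genes. Tspan33, a tetraspanin gene, was nearest to Sptb (0.0670), and Rhag was nearest to Ermap (0.106) and second nearest to Ank1 (0.155), after Slc25a21 (0.113). Car1 was nearest to Mfsd2b (0.107) and Rsad2 (0.126), and Car2 to Ddx60 (0.0834) and Myo1d (0.104). Rsad2 and Ddx60 are interferon-stimulated genes. Rhd was nearest to Abcg4 (0.205) and Tmem56 to Sh3tc2 (0.335). Slc4a1 had no close match, with Sh3tc2 nearest at 1.01. Among the 8 genes themselves the closest pair was Ank1 and Ermap (0.171), then Sptb and Ank1 (0.226), then Car1 and Car2 (0.264), and the farthest was Slc4a1 and Car1 (1.59).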

How the data were processed

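The deposited table holds raw read counts per gene symbol for 6 libraries, 1 mouse each, with no normalization by the authors. Per the labels' protocols, strand-specific messenger RNA libraries were read as pairs of 75 bp. The submitters' processing notes name mm10 as the build and STAR, HTSeq, Trimmomatic and FastQC as tools, with no versions. Neither the strand setting nor the treatment of reads with several positions is stated.

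The genotype test was edgeR's quasi-likelihood test (version 4.0.16, R 4.3.3) with robust glmQLFit after filterByExpr (minimum count 10, minimum total 15) and TMM scaling, adjusted by Benjamini-Hochberg over 15742 genes at a threshold of 0.05. Expression is given as CPM after TMM scaling, and positions and exon lengths come from GENCODE on GRCm38, the assembly of mm10. Alternatives used DESeq2 1.42.0, limma 3.58.1 (voom), other scalings and filters, sex as a covariate and each library left out. Named genes are the 8 genes, Ints11, up to 4 per list with the smallest adjusted p and the 2 nearest genes in pattern; other names were picked with their values in view. The 8 genes and the lists were chosen with earlier results of these data known. No pair of libraries agreed within sampling noise (chi-square per degree of freedom between 51.3 and 985 over pairs). Each library is 1 mouse, so p-values measure the spread between mice. Some genes that this rule selects, and 1 of the 3 ratios tested, are not reported here.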

Additional observations from a re-analysis of the deposited data

Results flagged for a closer look

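In a genotype by sex interaction, chosen after the data were seen, the coefficient passed for 6 of the 8 genes (edgeR's quasi-likelihood test, Benjamini-Hochberg adjustment over all genes tested), against 0.502% of genes tested. WT males are WT_341 alone and KO females KO_345 alone, so the spread in those arms was not measured, the coefficient rests on the high WT_341 already described, and it does not show a difference between the sexes. The log2 change in females minus that in males was 5.28 for Slc4a1, 3.07 for Ermap, 2.81 for Ank1, 2.30 for Car1, 2.27 for Rhd and 1.80 for Car2, which passed, and 2.11 for Sptb and 1.93 for Tmem56, which did not. Within males (KO_339 and KO_340 against WT_341) the log2 differences ran from -4.58 for Slc4a1 to -0.85 for Car1. Within females (KO_345 against WT_343 and WT_344) they ran from -1.19 for Tmem56 to 1.45 for Car1, and they were above 0 for all genes but Tmem56 and Rhd (-0.47).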

How the results depend on the processing

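With all 6 libraries, 5659 genes were called, and between 2302 (without KO_339) and 7879 (without WT_341) with 1 library left out. Of the 8 genes, 1 was lower, against 0 with no low-count filter or limma-voom, 2 with sex as a covariate and 0 to 1 with 1 library left out; 0 were higher, against 1 (Car1) with sample quality weights and 0 to 2 with 1 library left out. Signs turned with limma-voom for Car2 (0.058) and with sample quality weights for Slc4a1 (0.32) and Car2 (0.36). With 1 library left out the log2 change ran from -3.69 to 1.06 for Slc4a1, -1.14 to 0.14 for Sptb, -1.21 to 0.17 for Ank1, -0.012 to 1.02 for Car1 and -0.39 to 0.55 for Car2. The difference of the Slc4a1 to Ank1 ratio ran from -1.04 to 0.94. Without WT_341, leaving out 1 more library gave between 4672 and 7216 calls over all genes and 0 to 2 of the 8 higher, with log2 changes from -0.13 to 0.49 for Sptb, -0.10 to 0.39 for Ank1 and -0.29 to 0.18 for Ermap. In that fit Ermap turned sign with DESeq2 (0.0018), upper-quartile factors (0.16), library totals only (0.13), no low-count filter (0.0024) and at least 1 CPM in 3 libraries (0.088), and Ank1 with sample quality weights (-0.025). The causes were not tested. Upper-quartile factors and library totals moved the median log2 change of all genes to 0.15 and 0.11. DESeq2 gave no p for Slc4a1, and Slc4a1 did not pass the filter of 1 CPM in 3 libraries. No paired analysis was possible because the genotypes share no mouse numbers.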
